A study of Mus musculus with 18 samples.

Results

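The genes described here are 58 of the 36528 genes listed, and of the 15521 genes with over 10 reads in at least 4 of 18 samples, in primary murine renal tubulointerstitial epithelial cells (RPTEC) stimulated with TWEAK. They were chosen on the readout itself, as genes raised by TWEAK to a similar degree at 6 h and 24 h and brought most of the way back by NIK SMI1, a small molecule inhibitor of the kinase NIK. With V, T and S the mean CPM (the count of a gene scaled by the total of its sample) plus 0.1 of the vehicle, TWEAK and TWEAK with NIK SMI1 samples, a member had a mean TWEAK level of at least 1 CPM and a T/V of at least 1.5 at both times. The ratio of the 24 h to the 6 h fold lay above 0.77 and below 1.5, and the share of the induction removed, log2(T/S) divided by log2(T/V), was at least 0.55 at both times. A total of 320 genes met the fold at both times and 261 of them the limits on the ratio of folds. Of these 261 sustained genes, 82 reached the share at 6 h and 58 at both times. The remaining 203 sustained genes, 24 with the share at 6 h only, 37 at 24 h only and 142 at neither time, serve below as the comparison. Because T/V and S/T chose the members, those values are given as a description, without a test.

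The study asked what NIK contributes to the response of RPTEC to TWEAK. The cells were C57BL/6 mouse cells bought from a vendor, and no transgene or deletion was involved. Cells received DMSO as vehicle, recombinant mouse TWEAK at 100 ng/mL, or the same TWEAK with 3 μM NIK SMI1, each for 6 h or 24 h. Each of the 6 groups held 3 samples, and no group received NIK SMI1 alone, so a value with TWEAK and NIK SMI1 cannot separate an action on the TWEAK response from an action on the cells without TWEAK. The sources name no separate animals or preparations behind the replicates, so an SD or p-value measures the spread between cultured samples, which may be technical.

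TWEAK is a ligand of the TNF superfamily that binds the receptor Fn14, encoded by Tnfrsf12a. Fn14 recruits TRAF and cIAP proteins, which in resting cells keep NIK low by marking it for degradation. Engaged receptors let NIK accumulate, and NIK then drives the processing of p100, the product of Nfkb2, into p52, which enters the nucleus together with RelB as the non-canonical arm of NF-κB signaling. The same receptor also activates the faster canonical arm, in which IκB proteins are degraded and RelA and p50 are released. In the tubule, TWEAK is known as a pro-inflammatory factor that raises chemokines, adhesion molecules and matrix genes.

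Depth ranged from 18040966 to 51956444 reads counted on genes per sample, with a median of 35374254. Replicates of a group differed by more than sampling noise (chi-square per gene of 2.165 to 9.763) and none was a copy of another. Epithelial markers were abundant, with a summed level of 9 genes led by Krt18 and Krt8 of 8181 to 10806 CPM over the samples. Proximal tubule markers were scarce at 10.7 to 14.6 CPM for 8 genes, of which 4 passed the filter. Slc5a2 led them with group means of 6.51 to 8.11 CPM, followed by Cubn at 2.14 to 4.35 CPM. The transporters Slc34a1 and Slc22a6 were at 0 in most groups. The labelled proximal origin was thus seen at low level in some of these markers and not in others. Reads of pancreatic islet genes, led by Ins2, summed to 20.6 to 42.1 CPM in the 12 samples of 6 h and of vehicle at 24 h, but to 20.5, 0.321 and 6.21 CPM in the TWEAK samples at 24 h and 0.18 to 0.29 CPM under TWEAK plus NIK SMI1 at 24 h. A further setting kept TWEAK replicate 2 as the only TWEAK sample at 24 h. It was added after the data had been seen, because this library and the NIK SMI1 samples both had few islet reads. The same rule then chose 53 genes, 49 of them members. The median share of the members at 24 h was 72.8% in place of 73.5%. Vehicle at 24 h still held 20.6 to 27.3 CPM of islet reads, and the members had been chosen on the share. This setting thus cannot show whether islet reads affect the share.

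Across the 58 members the median T/V was 1.97 at 6 h and 2.02 at 24 h, with lowest values of 1.501 and 1.53 and highest values of 18.02 and 23.4. NIK SMI1 removed a median of 68.4% ± 1.97 of the induction at 6 h and 73.5% ± 3.38 at 24 h, on the log2 scale. The SD is that of the medians of the 3 samples with NIK SMI1. For every share given here, the SD holds the TWEAK and vehicle means fixed and leaves out their spread. The median member was left at 1.203 times vehicle at 6 h and 1.21 times vehicle at 24 h. Of the 58 members, 24 stayed under 2-fold at both times, 23 were at 2-fold or more at both times, and 7 reached 3-fold or more at both. Members ranged widely in level, with 11 at 100 CPM or more with TWEAK at 24 h, 26 from 5 to under 100 CPM and 21 under 5 CPM. Per length, the members stood at a median of 2.93 RPKM (counts scaled by exonic length and by library size) with TWEAK at 24 h against 9.25 RPKM for the other 203 sustained genes, from 0.118 RPKM for Slc7a2 to 185 RPKM for Ralb.

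All 3 TWEAK samples lay above all 3 vehicle samples in 58 of 58 members at 6 h and at 24 h. The rule used this contrast, and the same order was found in 15.8% of all tested genes at 6 h and in 24.0% at 24 h. NIK SMI1 brought all 3 samples under the lowest TWEAK sample in 57 members at 6 h (12.1% of tested genes), with Krt12 as the exception, and in 58 at 24 h (15.0%). Where NIK SMI1 brought each gene relative to vehicle was in part set by the limit on the share and is likewise given as a description. At 6 h the NIK SMI1 samples stayed above every vehicle sample in 33 members (12.2% of tested genes), and at 24 h in 34 (17.7%). In 24 members at 6 h (4.04% of tested genes) and 21 at 24 h (5.06%), the NIK SMI1 and vehicle samples overlapped while the TWEAK samples lay above both, an order that the rule favored. At 24 h, 3 members, C3, the gene model GeneID 102642251 and Slc7a2, had all NIK SMI1 samples below all vehicle samples (16.2% of tested genes), and at 6 h 0 did (13.8%).

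**Figure D1:**
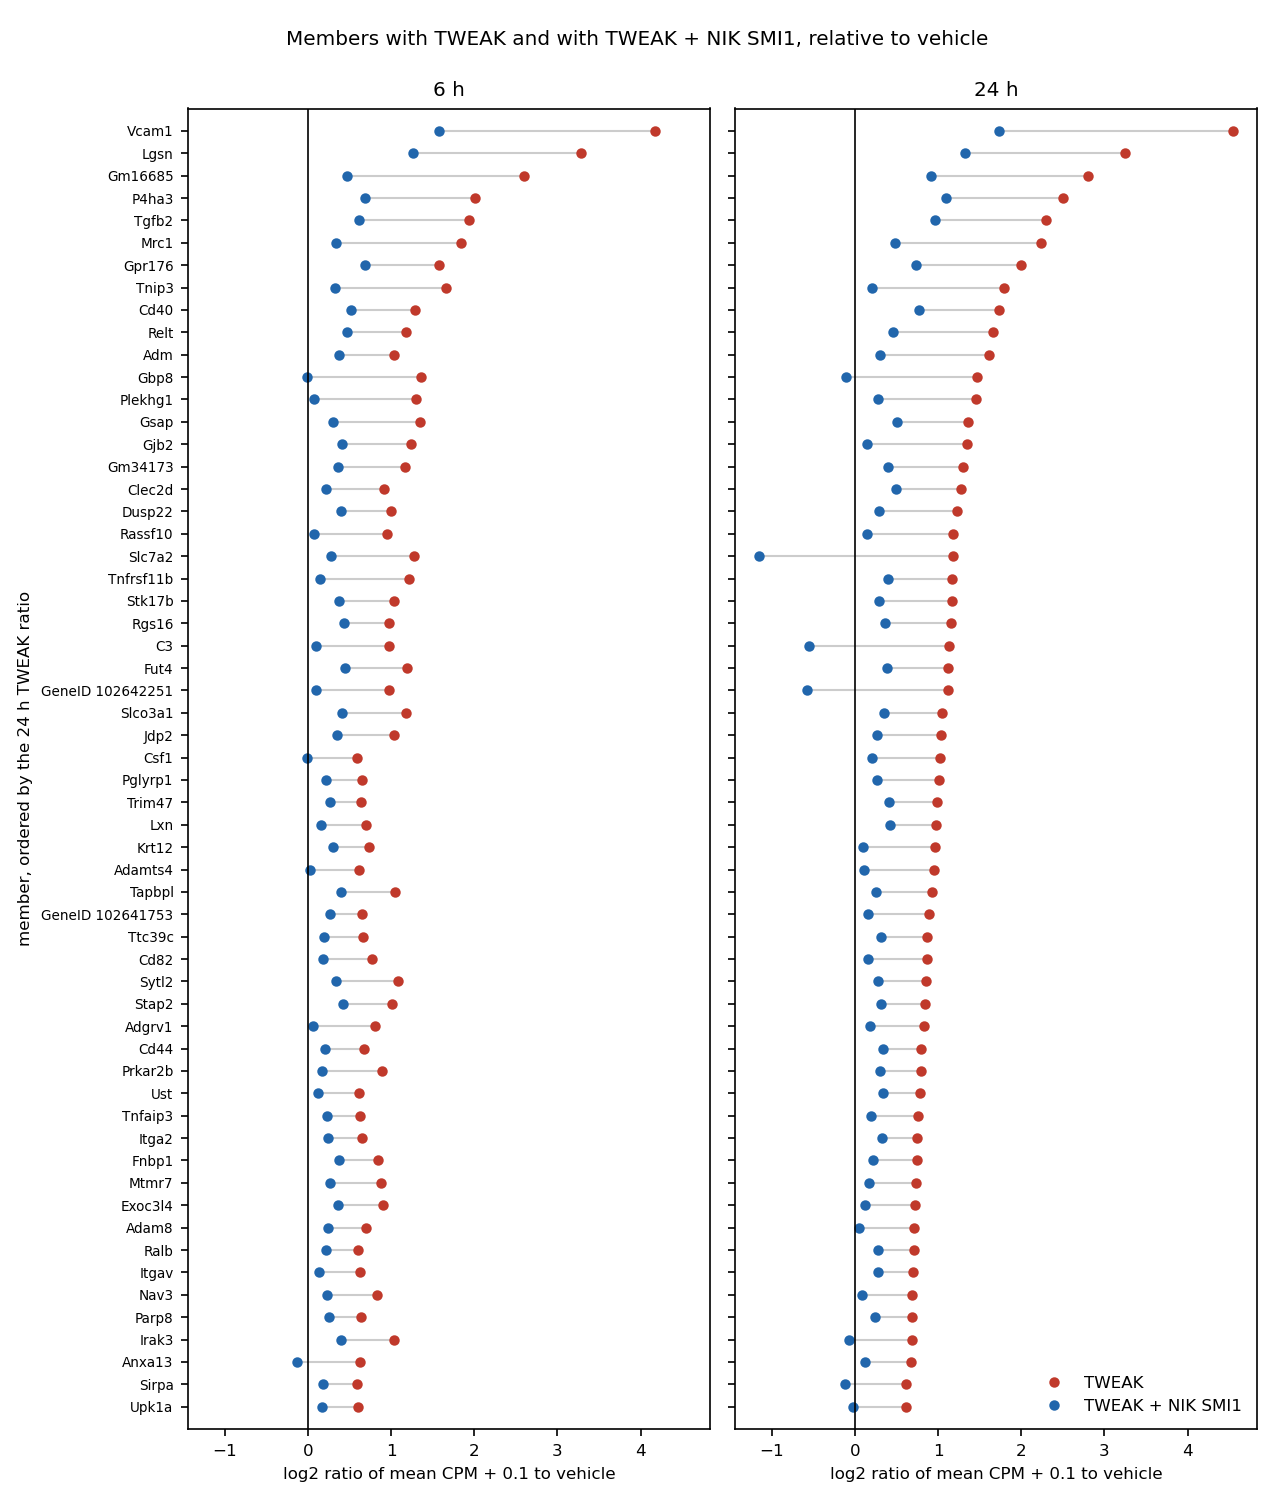
Each row is a member, ordered by its TWEAK ratio at 24 h, and the x axis gives the log2 ratio of mean CPM + 0.1 to vehicle at 6 h (left) and 24 h (right), with TWEAK in red and TWEAK with NIK SMI1 in blue. Vcam1 stands far to the right at both times, and C3, GeneID 102642251 and Slc7a2 are the members whose blue points at 24 h lie farthest to the left of vehicle.

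Promoter sequence was looked at because the members move together. RefSeq promoters (GRCm38.p6, 250 bases before to 50 after the start site) were found for 40 of the 58 members, 53 promoters in all. The κB consensus, the 10-base pattern of NF-κB dimers, was present on either strand in 11 of the 53 (20.8%, 95% Wilson interval 12.0% to 33.5%), against 17.6% of 199 promoters of the other sustained genes, 10.5% of 14395 promoters of tested genes and 8.46% of all 32851 promoters. A match is a description of letters and does not show binding, and the intervals treat promoters as independent although some belong to 1 gene. Other patterns were found once each: the interferon-stimulated response element in Clec2d (1.89% of member promoters, 3.44% of all) and the AP-1 pattern TGANTCA in Tnfaip3 (1.89% against 7.81%), both read on either strand. The stretches below are those of a ligand (Csf1), of the feedback regulators Tnip3 and Tnfaip3 and of a gap junction gene (Gjb2), whose values follow. They hold upstream bases only and are written 5′ to 3′ along the strand of the gene, with the κB consensus in capitals.
Csf1 at chr3:107760584-107760653, minus strand: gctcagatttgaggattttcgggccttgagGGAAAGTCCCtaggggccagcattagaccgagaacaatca
Tnip3 at chr6:65590314-65590383, plus strand: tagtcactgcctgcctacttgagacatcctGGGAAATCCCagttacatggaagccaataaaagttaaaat
Gjb2 at chr14:57104797-57104866, minus strand: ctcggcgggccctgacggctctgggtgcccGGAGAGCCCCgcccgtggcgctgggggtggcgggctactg
Tnfaip3 at chr10:19015411-19015565, minus strand: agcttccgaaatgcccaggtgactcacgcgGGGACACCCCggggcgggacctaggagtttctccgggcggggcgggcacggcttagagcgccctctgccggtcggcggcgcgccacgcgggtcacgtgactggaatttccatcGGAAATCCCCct
The capitals begin at position -154 from the start site in Csf1, -54 in Tnip3, -134 in Gjb2 and -125 and -12 in Tnfaip3. The 10 bases shown in capitals differed between these genes, and the 2 stretches in Tnfaip3 differed from each other.

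Among ligands, 2 of the 47 tested genes of a list of cytokines, chemokines and growth factors were members, Csf1 and Tgfb2, although 11 of the list were sustained. Over all tested genes, 58 of 15521 were members, which is the share to set beside each list count below. Of the 58 members, 41 were in none of the gene lists by role used here. Csf1 encodes macrophage colony-stimulating factor, the growth factor of macrophages. At 6 h its vehicle samples held 106, 112 and 112 CPM, the TWEAK samples 167, 164 and 165 CPM and the samples with TWEAK and NIK SMI1 114, 106 and 107 CPM. At 24 h the same treatments gave 117, 116 and 119 CPM, 241, 233 and 238 CPM and 136, 137 and 133 CPM. The NIK SMI1 samples thus overlapped vehicle at 6 h and sat slightly above it at 24 h, while TWEAK stood clear of both. The share removed was 102% at 6 h, where the fold of 1.5 was the lowest among members, and 79.6% at 24 h with a fold of 2.02.

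Tgfb2, a ligand of the TGF-β family with roles in matrix production, was less abundant and more strongly induced. Its levels at 6 h were 3.56, 3.07 and 3.87 CPM in vehicle, 14.7, 12.9 and 13.6 CPM under TWEAK and 6.07, 6.07 and 4.1 CPM under TWEAK plus NIK SMI1. By 24 h these were 3.11, 2.18 and 2.29, 11.7, 14.02 and 12.8 and 5.01, 5.54 and 4.48 CPM in the same order. Every NIK SMI1 sample remained above every vehicle sample at both times, so that Tgfb2 kept 1.53 and 1.94 times its vehicle level after 68.4% and 58.3% of its induction had been removed. Adm, which encodes the vasodilator peptide adrenomedullin and is in none of the role lists, rose from 0.772, 0.609 and 0.83 to 1.89, 2.23 and 3.23 CPM at 24 h and stood at 0.812, 0.899 and 1.07 CPM under NIK SMI1, overlapping vehicle.

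Receptors and adhesion molecules supplied the largest role group, with 6 of 47 tested genes, Cd40, Cd44, Itga2, Itgav, Tnfrsf11b and Vcam1, of 10 that were sustained. Vcam1, the adhesion molecule that leukocyte integrins bind, had the largest fold of all members. Vehicle samples at 6 h held 3.99, 3.98 and 4.25 CPM, TWEAK samples 80.5, 70.4 and 74.4 CPM and NIK SMI1 samples 11.4, 11.7 and 13.97 CPM. At 24 h vehicle stood at 6.55, 5.58 and 5.81 CPM, TWEAK at 144, 139 and 144 CPM and TWEAK with NIK SMI1 at 22.04, 20.1 and 18.2 CPM. The 3 groups did not overlap at either time. Although 62.2% and 61.9% of the 18.02-fold and 23.4-fold inductions were removed, Vcam1 was left at 2.98 and 3.33 times vehicle, the highest residual of any member with 0.1 CPM added to each mean. On the linear scale, that is as a share of the CPM added by TWEAK, the removed part was 88.3% at 6 h and 89.6% at 24 h.

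Cd44, the receptor of hyaluronan, was the member with the most reads. It was at 685, 656 and 678 CPM in vehicle at 6 h, 1104, 1057 and 1074 CPM under TWEAK and 781, 737 and 811 CPM under NIK SMI1 added. At 24 h the vehicle samples gave 552, 544 and 519.9 CPM, the TWEAK samples 926, 934 and 951 CPM and the NIK SMI1 samples 661, 691 and 685 CPM. NIK SMI1 placed Cd44 between the other groups at both times. The shares were 69.6% ± 10.2 and 58.2% ± 4.21 (SD over the 3 NIK SMI1 samples).

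The integrin subunits Itgav, part of the receptors that bind RGD motifs, and Itga2, part of a collagen receptor, behaved much like Cd44 in level and size. Itgav rose from 456 ± 13.5 to 741 ± 27.3 CPM at 24 h and stood at 551 ± 38.3 CPM under NIK SMI1 (mean ± SD, n = 3). For Itga2 the 24 h means were 220.4 ± 3.42 CPM in vehicle, 371 ± 13.8 CPM under TWEAK and 276 ± 3.62 CPM under TWEAK plus NIK SMI1. Their folds stayed between 1.54 and 1.68 at both times, and the shares removed ran from 56.8% for Itga2 at 24 h to 78.5% for Itgav at 6 h. At 6 h 1 NIK SMI1 sample of Itgav, at 716 CPM, lay above its 3 vehicle samples of 650.1, 539.6 and 571 CPM, while the other two lay within their range. The 3 groups of Itga2 did not overlap at either time.

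Cd40, a TNF receptor family member that itself signals through NIK, was scarce. Vehicle samples at 6 h held 1.46, 1.42 and 1.48 CPM, TWEAK samples 3.76, 3.72 and 3.57 CPM and NIK SMI1 samples 2.34, 2.24 and 1.77 CPM. At 24 h the levels were 0.655, 0.913 and 0.683, 2.51, 3.04 and 2.61 and 1.35, 1.48 and 1.23 CPM in that order. All levels were lower at 24 h than at 6 h, while the fold went from 2.44 to 3.31. With a share of 55.1% at 24 h, Cd40 was the member nearest to the limit of 55%.

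Tnfrsf11b encodes osteoprotegerin, a soluble decoy receptor for RANK ligand. Its 6 h samples were 1.33, 2.19 and 1.62 CPM in vehicle, 4.34, 4.08 and 3.91 CPM under TWEAK and 1.67, 1.92 and 2.11 CPM under TWEAK plus NIK SMI1, the last overlapping vehicle. At 24 h TWEAK gave 2.2, 2.63 and 3.01 CPM against 0.889, 1.42 and 1.02 CPM in vehicle, and NIK SMI1 gave 1.87, 1.25 and 1.36 CPM, again overlapping vehicle. Relt, another member of the TNF receptor superfamily, was in no role list and rose from 4.02 ± 0.401 to 12.9 ± 1.23 CPM at 24 h, with 5.55 ± 0.438 CPM under NIK SMI1 (mean ± SD, n = 3).

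**Figure D2:**
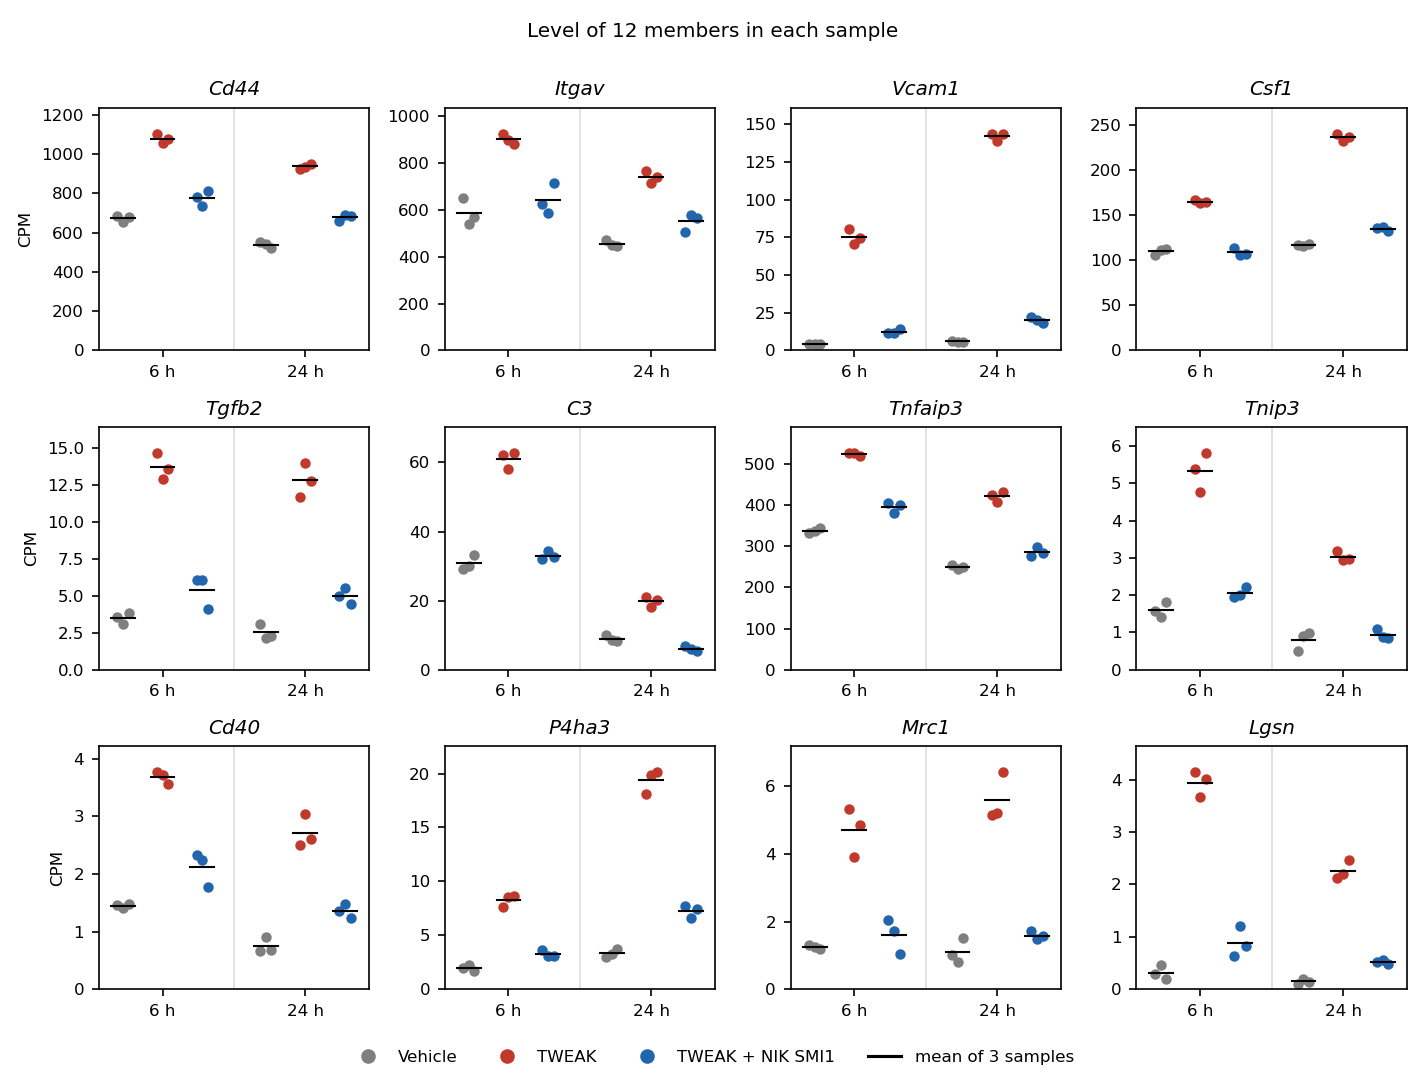
Each panel gives the level of 1 member in CPM on a linear axis from 0, with 1 point per sample, grouped by time and colored by treatment, and a bar at the mean of 3 samples. At each time the TWEAK samples lie above the other groups of that time in every panel. Vcam1 shows the widest gap relative to its axis, and C3 and Tnip3 are at a lower level at 24 h than at 6 h.

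Feedback regulators of NF-κB made up the next group. Tnfaip3 encodes A20, a deubiquitinase that restrains canonical signaling, and its promoter stretch above holds 2 matches to the κB consensus. At 6 h it was at 333, 337 and 343 CPM in vehicle, 526, 526 and 519.6 CPM under TWEAK and 404, 381 and 400.3 CPM under TWEAK plus NIK SMI1. At 24 h these groups held 255, 246 and 249, 424, 408 and 433 and 276, 298 and 284 CPM. The 3 groups were separate at both times, with NIK SMI1 nearer to vehicle than to TWEAK. The shares were 64.5% ± 7.24 and 74.4% ± 7.54 (SD over the 3 NIK SMI1 samples).

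Tnip3 encodes ABIN-3, a partner of A20 that binds ubiquitin. Its vehicle samples at 6 h were at 1.59, 1.42 and 1.83 CPM, the TWEAK samples at 5.37, 4.77 and 5.81 CPM and the NIK SMI1 samples at 1.95, 1.996 and 2.22 CPM. At 24 h the levels were 0.514, 0.913 and 0.976 CPM, 3.17, 2.95 and 2.96 CPM and 1.11, 0.87 and 0.845 CPM. NIK SMI1 overlapped vehicle at 24 h only, and the shares of 80.02% and 88.5% were among the 10 highest when each member is ranked by its lower value. Irak3, a kinase-like protein that damps signaling by Toll-like receptors, was at 1.19, 1.18 and 1.55 CPM under TWEAK at 24 h, 0.748, 0.558 and 1.02 CPM in vehicle and 0.632, 0.725 and 0.845 CPM under NIK SMI1. Its ratio of folds of 0.784 was the lowest of the members, since the fold went from 2.05 at 6 h to 1.6 at 24 h. In all, 3 of 41 tested genes of the NF-κB list were members (Cd40, Tnfaip3 and Tnip3), of 16 that were sustained.

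Complement C3 and the peptidoglycan recognition protein Pglyrp1, which binds bacterial cell walls, were the 2 members among 14 tested genes of innate defence. C3, the central protein of the complement cascade, was at 29.3, 30.1 and 33.1 CPM in vehicle at 6 h, 62.2, 57.99 and 62.7 CPM under TWEAK and 32.2, 34.5 and 32.5 CPM under TWEAK plus NIK SMI1. By 24 h vehicle had gone down to 10.1, 8.52 and 8.3 CPM, TWEAK stood at 21.02, 18.1 and 20.3 CPM and NIK SMI1 at 6.88, 5.94 and 5.39 CPM. The NIK SMI1 samples overlapped vehicle at 6 h and lay below all vehicle samples at 24 h. The shares were 89.8% ± 5.39 and 149% ± 15.3 (SD over the 3 NIK SMI1 samples). The TWEAK level at 24 h was thus below the vehicle level at 6 h, although the fold was 1.97 at 6 h and 2.2 at 24 h. GeneID 102642251, without a RefSeq symbol, had 92.8% to 97.0% of the reads of C3 in every sample, so its values cannot be told apart from those of C3 and the counts of members that include both take the same reads again. Pglyrp1 was at 1.23, 1.98 and 1.44 CPM in vehicle, TWEAK and TWEAK with NIK SMI1 at 6 h and at 0.547, 1.2 and 0.678 CPM at 24 h.

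Interferon response and antigen presentation gave 2 members of 48 tested genes. Gbp8, a guanylate-binding protein, was at 0.0324, 0.481 and 0.5 CPM in vehicle at 6 h (1, 18 and 26 reads), 1.03, 0.994 and 1.06 CPM under TWEAK and 0.334, 0.279 and 0.388 CPM under NIK SMI1. At 24 h it was at 0.982, 0.66 and 0.976 CPM, 2.64, 2.48 and 2.63 CPM and 0.79, 0.783 and 0.845 CPM. It returned to the vehicle range at both times, and ranked by the lower of its shares, 101% and 107%, it came first among members. At 6 h this rests on few reads, and 1 vehicle sample held 1 read. Tapbpl, which edits the peptides loaded on MHC class I, rose from 13.5 ± 0.269 to 25.9 ± 0.225 CPM at 24 h and stood at 16.1 ± 1.73 CPM under NIK SMI1 (mean ± SD, n = 3), all 3 groups being separate.

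Genes of matrix and proteolysis included Adam8 and Adamts4, 2 of 38 tested genes of that list. Adam8, a membrane metalloprotease, was at 71.6, 70.8 and 70.5 CPM in vehicle at 24 h, 116, 117 and 117 CPM under TWEAK and 77.8, 68.6 and 72.99 CPM under NIK SMI1, the last spanning the vehicle values. At 6 h its NIK SMI1 samples of 100.4, 105 and 100.2 CPM lay above the vehicle samples of 79.4, 88.7 and 89.4 CPM, and the share removed went from 65.00% to 93.96%. Adamts4, which cleaves aggrecan, was at 1.48, 2.95 and 1.61 CPM at 24 h in the same order, and its shares of 96.5% and 88.4% put it among the most NIK SMI1-sensitive members.

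P4ha3, a subunit of the prolyl hydroxylases that modify collagen, was outside the role lists and had the fourth largest fold. Its levels at 6 h were 1.98, 2.24 and 1.73 CPM in vehicle, 7.67, 8.53 and 8.69 CPM under TWEAK and 3.65, 3.11 and 3.05 CPM under NIK SMI1. At 24 h vehicle gave 2.99, 3.3 and 3.76 CPM, TWEAK 18.1, 19.9 and 20.1 CPM and NIK SMI1 7.76, 6.64 and 7.47 CPM. The NIK SMI1 samples at 24 h thus overlapped the TWEAK samples at 6 h, and the residual of 2.14 times vehicle was among the largest. Lxn, the carboxypeptidase inhibitor latexin, was at 75.1 ± 0.952 CPM under TWEAK at 24 h, 38.05 ± 0.827 CPM in vehicle and 51.1 ± 3.82 CPM under NIK SMI1 (mean ± SD, n = 3), so that 56.6% of its rise was removed against 76.8% at 6 h.

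Transport and metabolism gave 1 member of 35 tested genes, the arginine transporter Slc7a2. At 24 h it was at 0.561, 0.406 and 0.293 CPM in vehicle, 1.23, 0.835 and 1.17 CPM under TWEAK and 0.0677, 0.203 and 0.13 CPM under NIK SMI1, which was below all vehicle samples. Those NIK SMI1 values rest on 3, 7 and 4 reads. The share of 198%, the highest of any member, carried an SD of 36.1 percentage points over the 3 NIK SMI1 samples. Slco3a1, an organic anion transporter outside the list, rested on far more reads, with 55.7 ± 2.23 CPM in vehicle, 115 ± 1.01 CPM under TWEAK and 70.97 ± 3.54 CPM under NIK SMI1 at 24 h (mean ± SD, n = 3) and shares of 64.8% and 66.8%.

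Lgsn, which encodes lengsin, a protein related to glutamine synthetase and best known from the lens, had the second largest fold. It was nearly silent with vehicle, at 9, 17 and 10 reads at 6 h and 4, 4 and 3 reads at 24 h, against 144, 184 and 152 and 48, 103 and 103 reads with TWEAK. In CPM, TWEAK gave 2.11, 2.2 and 2.46 at 24 h and NIK SMI1 0.519, 0.551 and 0.487, with vehicle at 0.0935, 0.203 and 0.146. NIK SMI1 left Lgsn at 2.4 and 2.5 times vehicle on the scale with 0.1 CPM added, which understates ratios at such levels. The long non-coding RNA Gm16685, a neighbor of Il7 in RefSeq, was of the same kind, with 3, 3 and 2 reads with vehicle at 24 h, 30, 54 and 64 with TWEAK and 8, 7 and 15 with NIK SMI1. Its folds of 6.06 and 6.95 were the third largest at both times.

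Other members with a myeloid or immune name were found at low level. Mrc1, the mannose receptor of macrophages, was at 1.01, 0.812 and 1.51 CPM in vehicle at 24 h, 5.15, 5.2 and 6.41 CPM under TWEAK and 1.71, 1.48 and 1.56 CPM under NIK SMI1. At 6 h the levels were 1.3, 1.26 and 1.17, 5.31, 3.9 and 4.86 and 2.03, 1.72 and 1.05 CPM. NIK SMI1 and vehicle overlapped at both times, with 81.4% and 78.6% of the induction removed. Sirpa, the receptor of CD47, was the member nearest to the lower limit of level at 1.02 CPM under TWEAK at 6 h, and Clec2d, a C-type lectin, rose from 4.4 ± 0.29 to 10.8 ± 0.881 CPM at 24 h with 6.25 ± 0.422 CPM under NIK SMI1 (mean ± SD, n = 3). Beside these values, the 10 leukocyte markers summed to 18.5 to 19.6 CPM in vehicle at 6 h, 18.9 to 21.4 CPM under TWEAK and 18.6 to 19.1 CPM under NIK SMI1. At 24 h the sums were 21.3 to 22.6, 24.3 to 26.1 and 19.9 to 21.1 CPM. The higher sum under TWEAK at 24 h came from Csf1r, with group means of 8.10, 11.9 and 8.41 CPM in that order. Cd68 did not share it, at 13.4, 12.9 and 11.8 CPM. Only Cd68 and Csf1r of that list passed the filter, Cd3e and Tyrobp had no read in any sample, and Ptprc reached at most 0.1497 CPM in a group mean. The 7 endothelial markers summed to 34.2 to 36.0 CPM in vehicle, 47.5 to 49.7 CPM under TWEAK and 40.9 to 42.5 CPM under NIK SMI1 at 6 h, and to 28.1 to 30.4, 25.5 to 26.7 and 24.3 to 26.9 CPM at 24 h. Flt1 supplied most of that sum, Emcn had no read, and Pecam1 and Tek reached at most 0.0649 and 0.0533 CPM in a group mean. At these levels fewer cells of a type and less RNA per cell cannot be told apart.

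Intracellular signaling genes made up much of the rest. Ralb, a Ras-like GTPase, had the highest level per length, at 113, 185 and 136 RPKM with vehicle, TWEAK and TWEAK with NIK SMI1 at 24 h. In CPM it was at 273, 278 and 268, 453, 440.3 and 450.0 and 339, 321 and 329 in the same samples, with NIK SMI1 between the other groups. Rgs16, which switches off G protein signaling, was at 146, 147 and 154 CPM in vehicle at 6 h, 299, 283 and 302 CPM under TWEAK and 204, 198 and 201 CPM under NIK SMI1, and at 105, 107 and 98.1, 224, 228 and 239 and 125, 135 and 138 CPM at 24 h. The tetraspanin Cd82 had one of the tightest patterns, at 192, 196 and 195 CPM in vehicle, 349, 357 and 351 CPM under TWEAK and 224, 216 and 211 CPM under NIK SMI1 at 24 h and shares of 77.00% and 81.2%.

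Jdp2, a bZIP protein that represses AP-1 targets, rose 2.05-fold and 2.05-fold with 66.4% and 74.6% of the rise removed. No gene of the list of 50 tested transcription factors, which does not hold Jdp2, and none of the 19 tested genes of cell survival was a member. With 58 members among all 15521 tested genes, lists of this size say little by holding none. Gjb2, which encodes the gap junction protein connexin 26, was at 4.21, 4.41 and 4.3 CPM in vehicle at 24 h, 11.98, 10.9 and 10.5 CPM under TWEAK and 4.78, 5.02 and 4.55 CPM under NIK SMI1. At 6 h it was at 2.53, 3.07 and 2.58, 6.64, 6.02 and 7.08 and 3.42, 3.11 and 4.43 CPM, so that TWEAK at 24 h gave more reads although the fold moved only from 2.36 to 2.55. Gpr176, an orphan G protein-coupled receptor, reached folds of 2.99 and 3.98 from a vehicle level of about 0.488 CPM at 24 h.

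Among the members named for a large share removed, Rassf10 (92.1% and 87.7%), Plekhg1 (94.6% and 81.3%) and the annexin Anxa13 (120.3% and 81.8%) all stayed under 5 CPM. The SD of these shares over the 3 NIK SMI1 samples reached 49.8 percentage points for Anxa13 at 24 h. At the other end, Ust, a sulfotransferase, Rgs16, P4ha3, Fnbp1 and Cd40 had the lowest shares, from 55.1% for Cd40 to 56.2% for Rgs16 and 56.2% for Ust at the weaker of their times. Fnbp1, an F-BAR protein of membrane curvature, was at 21.3 ± 0.64, 38.3 ± 1.25 and 27.7 ± 0.52 CPM in vehicle, TWEAK and NIK SMI1 at 6 h (mean ± SD, n = 3), which left all groups apart.

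The remaining members fell into moderately and weakly expressed genes. Of the former, Stk17b, a kinase linked to apoptosis, was at 23.7, 25.4 and 25.6 CPM in vehicle at 24 h, 53.6, 58.1 and 55.95 CPM under TWEAK and 28.2, 28.8 and 34.6 CPM under NIK SMI1. Mtmr7, a phosphatase of phosphoinositides, was at 39.5, 39.6 and 38.02, 64.3, 65.9 and 64.7 and 41.9, 43.8 and 46.1 CPM. Dusp22, a dual-specificity phosphatase, was at 9.38, 8.02 and 8.83, 19.8, 20.01 and 21.96 and 9.66, 11.7 and 10.8 CPM. In all of them NIK SMI1 stayed above vehicle and well below TWEAK.

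The ubiquitin ligase family member Trim47 (57.7% and 58.6%), Ttc39c (71.3% and 63.4%), Parp8, of the PARP family (59.4% and 64.9%), and the adaptor Stap2 (58.2% and 63.2%) had shares removed that differed by under 10 percentage points between 6 h and 24 h. Prkar2b, a regulatory subunit of protein kinase A, went from 80.3% to 62.5% and overlapped vehicle with NIK SMI1 at both times. Adgrv1, an adhesion G protein-coupled receptor, was at 10.1, 10.7 and 9.91 CPM in vehicle, 16.8, 19.1 and 18.9 CPM under TWEAK and 11.9, 10.5 and 12.5 CPM under NIK SMI1 at 24 h, with vehicle and NIK SMI1 overlapping.

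Sytl2, of the synaptotagmin-like proteins of vesicle traffic, kept shares of 68.4% and 67.5%, and Gsap, the γ-secretase activating protein, went from 77.9% to 63.05% at folds of 2.54 and 2.57. Fut4, a fucosyltransferase, rose 2.29-fold and 2.18-fold and was left at 1.36 and 1.31 times vehicle. Nav3, of the neuron navigator family, was at 12.7 CPM under TWEAK at 24 h and 8.25 CPM under NIK SMI1, against 7.8 CPM in vehicle. Among the members not yet described, Exoc3l4, Upk1a, Krt12, the long non-coding RNA Gm34173 and the gene model GeneID 102641753 were all under 5 CPM under TWEAK at 24 h. Of these, Krt12 had 2 NIK SMI1 samples at 6 h, at 1.04 and 0.998 CPM, inside the TWEAK range of 1.18, 0.974 and 1.24 CPM, and Upk1a, a urothelial membrane protein, had folds of 1.52 and 1.53 at a TWEAK level of 2.4 CPM at 24 h.

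Members also differed in whether the share grew with time. It was larger at 24 h than at 6 h in 33 of the 58 members, and the fold was larger at 24 h in 44. Neither change was tested in the members. The largest gains were in Slc7a2, C3 with GeneID 102642251, Irak3 and Sirpa. In Slc7a2, Irak3 and Sirpa each NIK SMI1 sample at 24 h held only 3 to 40 reads. The share exceeded 100%, meaning a NIK SMI1 mean below the vehicle mean, in 3 members at 6 h and 7 at 24 h. The part of all tested genes with this order of means is not given here. Csf1 and Gbp8 at 6 h and Upk1a and Irak3 at 24 h passed 100% by less than their SD. All NIK SMI1 samples lay below all vehicle samples in 0 members at 6 h and 3 at 24 h, with C3 and GeneID 102642251 among these.

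**Figure D3:**
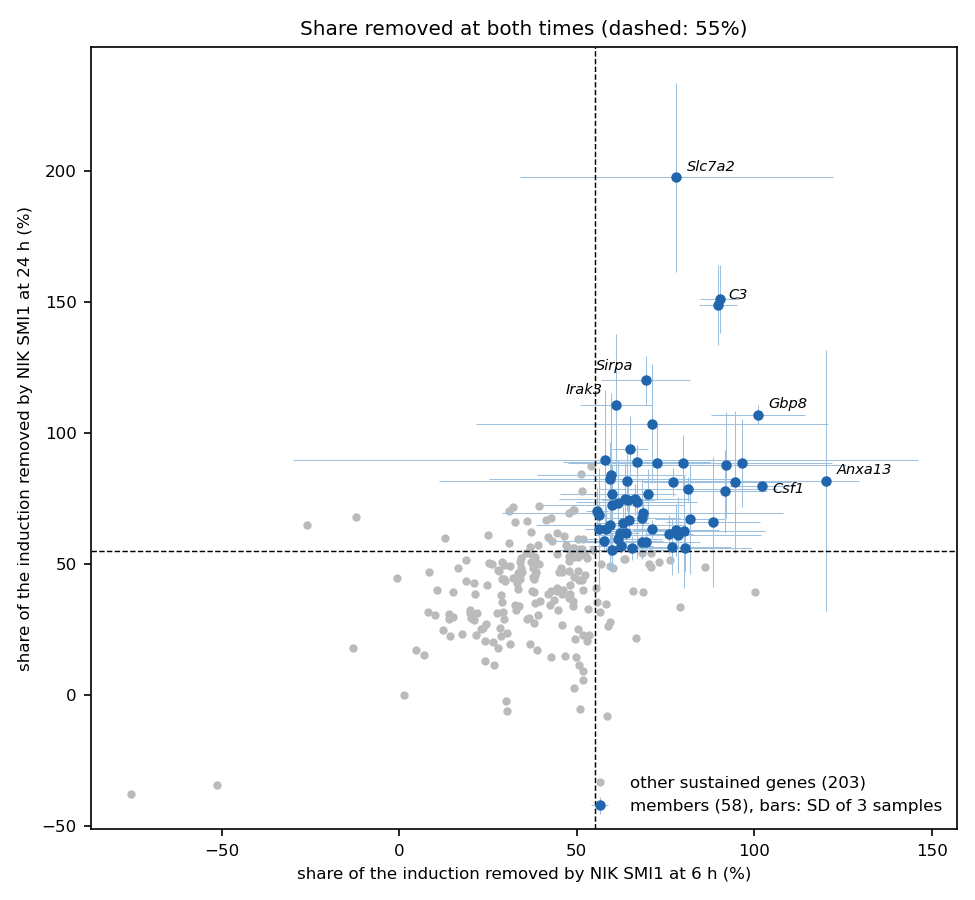
Each point is a gene, with the share of its induction removed by NIK SMI1 at 6 h on the x axis and at 24 h on the y axis, both in percent of the log2 induction. Members are blue with bars for the SD over 3 NIK SMI1 samples, the other 203 sustained genes are gray, and the dashed lines mark 55%, the limit that chose the members.

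Genes near the limits were close to members in every value. Just inside the limit on the share were Cd40 (55.1%), Fnbp1 (55.7%) and P4ha3 (55.9%), and just outside were C9orf72 (54.7%), Grk5 (54.1%) and Fhod3 (54.0%). On the fold, Csf1 at 1.501 and Sirpa at 1.503 were inside and Psmb10 at 1.48 and Spn at 1.47 outside. By TWEAK level Sirpa at 1.02 and Gbp8 at 1.03 CPM were inside and Pdk4 at 0.914 and Sprr2e at 0.695 CPM outside. On the ratio of folds the nearest members were Irak3 at 0.784 and Adm at 1.49, and the nearest genes left out were Mcc at 0.768 and Tmod2 at 1.54. When each library in turn was left out of the choice, the rule chose 53 to 61 genes, of which 49 to 57 were members. In the library left out, the genes so chosen had a median fold of 1.89 to 2.09 or a median share of 65.2% to 76.1%, whichever that library gives. Each value set that library against means of other groups that had also chosen the genes. It is thus a description and not a separate test.

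The rule set no limit on vehicle at 24 h against 6 h, and this contrast was tested in edgeR. The quasi-likelihood method was used with Benjamini-Hochberg adjustment over 15521 genes. The vehicle means did enter T/V and the ratio of folds. Calls among members and other sustained genes are thus not independent of how these genes were chosen. Without TWEAK, 17 of the 58 members were lower at 24 h (29.3%), with both C3 and GeneID 102642251 among them, and 6 were higher (10.3%), against 14.4% lower and 15.5% higher among all tested genes. Of the other 203 sustained genes, 64 (31.5%) were lower and 41 (20.2%) higher. The shares of called genes were not tested against each other.

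C3 had the largest fall, from 30.8 ± 2.04 to 8.96 ± 0.956 CPM (mean ± SD, n = 3), a log2 fold change of -1.82 (SE 0.081, adjusted p = 1.22e-15). Pglyrp1 fell by 1.27 (SE 0.26, adjusted p = 3.93e-04) and Tnip3 by 1.202 on the log2 scale (SE 0.22, adjusted p = 1.19e-04). Cd40 changed by -1.06 (SE 0.20, adjusted p = 1.90e-04). In each of these genes the 3 vehicle samples at 24 h lay below the 3 at 6 h. Lgsn had a log2 fold change of -1.22 that missed the threshold (SE 0.47, adjusted p = 0.0526).

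Several abundant members fell by smaller amounts with small errors. Rgs16 changed by -0.60 (SE 0.043), Itga2 by -0.59 (SE 0.043), Tnfaip3 by -0.50 (SE 0.034), Itgav by -0.43 (SE 0.062) and Cd44 by -0.39 (SE 0.034), all on the log2 scale and past the threshold. For these genes a fold of about the same size at 24 h went with a lower CPM under TWEAK than at 6 h. The calls of Tgfb2 (-0.48, adjusted p = 0.0250), Tnfrsf11b (-0.75, adjusted p = 0.0120) and Gsap (-0.32, adjusted p = 0.0232) rested on single libraries. For Gsap it was also lost, at an adjusted p of 0.0577, when the 6 vehicle samples were fitted alone. Without vehicle replicate 2 at 6 h the adjusted p was 0.0867 for Tnfrsf11b and 0.0583 for Gsap, and without vehicle replicate 1 at 24 h it was 0.136 for Tnfrsf11b. Without vehicle replicate 3 at 6 h it was 0.118 for Tgfb2 and 0.0589 for Gsap, without vehicle replicate 2 at 24 h 0.104 for Tgfb2 and 0.129 for Gsap, and without vehicle replicate 3 at 24 h 0.0966 for Tgfb2.

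Of the members that rose, Gbp8 changed most, at a log2 fold change of 1.21 (SE 0.35, adjusted p = 0.00996), but the adjusted p was 0.0721 without vehicle replicate 1 at 24 h and 0.0665 when the 6 vehicle samples were fitted alone. P4ha3 rose by 0.68 (SE 0.14, adjusted p = 4.20e-04), Gjb2 by 0.59 (SE 0.13, adjusted p = 7.89e-04) and Vcam1 by 0.51 (SE 0.11, adjusted p = 6.85e-04). Jdp2 and Fnbp1 rose by 0.26 and 0.23. Csf1 at 0.02 (SE 0.034, adjusted p = 0.672) and Cd82 at -0.06 (SE 0.035, adjusted p = 0.177) were not called.

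**Figure D4:**
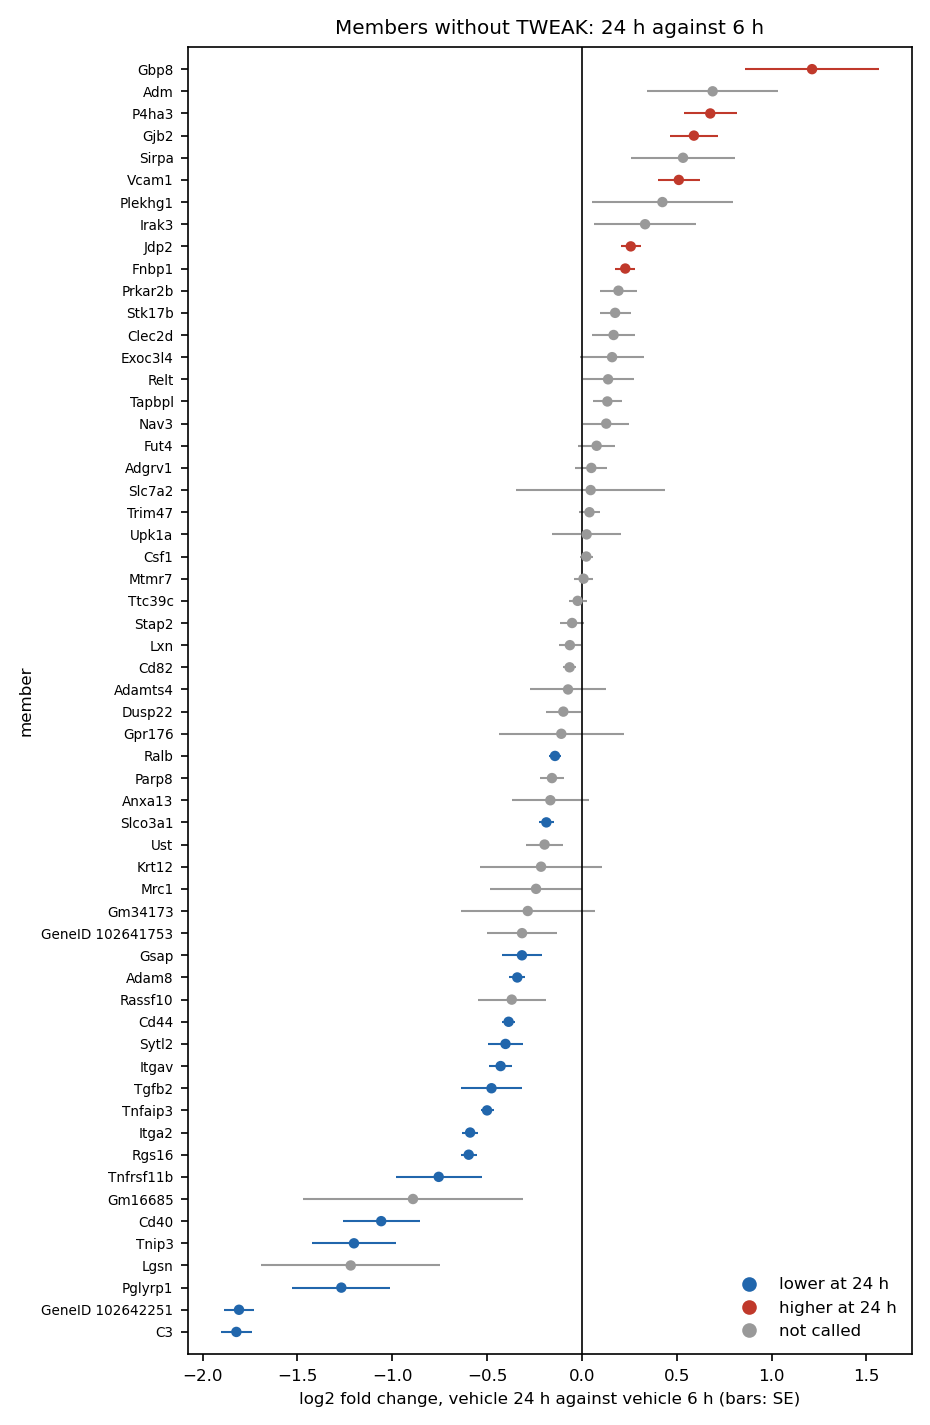
Each row is a member, and the x axis gives its log2 fold change between vehicle at 24 h and vehicle at 6 h, with bars for the SE. The 17 members called lower are blue, the 6 called higher are red, and C3 lies farthest to the left and Gbp8 farthest to the right.

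With TWEAK present, the mean level was higher at 24 h than at 6 h in 33 members and lower in 25. The ratio of the TWEAK levels at 24 h and 6 h ran from 0.326 to 2.38 with a median of 1.02. Hence a sustained fold covered genes whose TWEAK level rose, such as P4ha3 and Vcam1, and genes whose TWEAK level fell together with vehicle, such as C3 and Tnip3.

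Genes of the pathway itself were looked at beside the members. Of those listed, 2 of 29 were members, against 58 of all 15521 tested genes, and this difference was not tested. Of a list of 29 genes of TWEAK receptor and NF-κB signaling, all were in the files, Tnfaip3 and Cd40 were members, and Tnfrsf13c was not tested, which left 26 tested genes outside the module. TWEAK raised 16 of the 26 at 6 h and lowered 0, and raised 17 at 24 h and lowered 4 (edgeR, adjusted p below 0.05), where 11.7% and 18.3% of all tested genes were called higher and 12.0% and 20.7% lower. With NIK SMI1 against TWEAK, 12 of the 26 were lower at 6 h and 16 at 24 h, where 5.70% and 8.29% of tested genes were called lower, and 2 were higher at each time (5.34% and 10.2%). The 4 genes called lower with TWEAK at 24 h, Chuk, Ltbr, Tnfsf12 and Traf5, were reduced to 1 without vehicle replicate 3 at 24 h and 2 without vehicle replicate 1, TWEAK replicate 1 or TWEAK replicate 3 at 24 h. Beside Map3k14, the genes called higher with NIK SMI1 were Tnfrsf12a at 6 h and Otud7b at 24 h, at log2 fold changes of 0.13 and 0.11. The call of Tnfrsf12a was lost without TWEAK replicate 1 or 2 or NIK SMI1 replicate 1 or 2 at 6 h, which left 1 gene, and that of Otud7b without TWEAK replicate 1 or 2 or NIK SMI1 replicate 2 or 3 at 24 h, which also left 1.

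Nfkb2, the gene of p100, was at 146 ± 5.81 CPM in vehicle, 541 ± 18.4 CPM under TWEAK and 415 ± 12.5 CPM under NIK SMI1 at 6 h (mean ± SD, n = 3). It rose with TWEAK by 1.90 (SE 0.037, adjusted p = 1.23e-23) and fell with NIK SMI1 by a log2 fold change of -0.39 (SE 0.036, adjusted p = 9.49e-09). On the log2 scale, 20.2% of its induction was removed at 6 h and 29.1% at 24 h. Relb, the partner of p52, lost 26.1% and 50.1%, and Birc3, which encodes a cIAP protein, lost 33.1% and 42.6%. Nfkbia, which encodes IκBα, rose by 2.56 and 2.77 on the log2 scale and lost 44.5% and 53.6%. These shares are also on the log2 scale, and a larger part of the CPM added by TWEAK was removed. At 24 h, vehicle, TWEAK and TWEAK with NIK SMI1 had means of 28.0, 191 and 68.4 CPM for Nfkbia. For Birc3 these means were 5.22, 38.4 and 16.5 CPM. All 4 genes were sustained by the limits on the fold, with folds at 6 h of 3.71 for Nfkb2, 1.75 for Relb, 5.48 for Birc3 and 5.84 for Nfkbia, and none reached the share of 55% at both times.

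Traf1, an adaptor of TNF receptors, rose from 1.15 ± 0.238 to 57.5 ± 2.47 CPM at 24 h and stood at 10.7 ± 0.559 CPM under NIK SMI1 (mean ± SD, n = 3). Its ratio of folds of 2.56 also lay outside the limits. Map3k14, the gene of NIK itself, moved the other way from the members under the inhibitor. It rose with TWEAK by 0.86 (SE 0.055, adjusted p = 1.13e-12) at 6 h and 0.95 (SE 0.056) at 24 h, and rose further with NIK SMI1 by 0.43 (SE 0.053, adjusted p = 1.30e-06) and 0.33 (SE 0.052, adjusted p = 3.38e-05). The samples at 24 h were 56.2, 60.2 and 55.6 CPM in vehicle, 118, 109 and 106 CPM under TWEAK and 132, 145 and 139.6 CPM under TWEAK plus NIK SMI1, without overlap. Tnfrsf12a, the gene of the receptor Fn14, was not called with TWEAK at 6 h (-0.03, adjusted p = 0.652) or 24 h (0.01, adjusted p = 0.904).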

How the data were processed

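RNASeq was performed by the authors on 18 samples of murine RPTEC. GSNAP, run by the authors within HTSeqGenie, aligned reads to NCBI build 37, and the authors deposited, for each Entrez gene, the count of uniquely aligned reads in exons, without normalization, and RPKM values scaled by exonic length and sample total. RPKM values served for levels between genes only. Sources differ on sequencer and read length. GeneID symbols were matched to RefSeq (31049 of 36528), and coordinates printed are of RefSeq promoters on GRCm38.p6, which is not the build of the counts.

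CPM was the count divided by the summed counts of the sample. For genes with over 10 reads in at least 4 samples, 1 model of the 6 groups was fitted in edgeR 4.0.16 (TMM, quasi-likelihood F-test, R 4.3.3), with Benjamini-Hochberg adjusted p-values below 0.05 called. DESeq2 1.42.0 was an alternative. At these depths 3 reads equal 0.0577 to 0.166 CPM, and intervals cover counting error only. Scripts were tested on simulated data. The members, gene lists and tests were chosen with earlier results of these data known. The members named were all those in a role list, the 12 with the highest TWEAK level and the 12 with the highest fold at 24 h, the 10 highest and 5 lowest in share, those nearest to a limit, and the 5 largest rises and falls in vehicle. Other members were named after their values had been seen. Labels carry no replicate numbers, so numbers 1 to 3 only tell samples apart. An exact permutation test of 3 against 3 cannot go below p = 0.1 and was not used.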

Additional observations from a re-analysis of the deposited data

Results flagged for a closer look

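In several of the 26 tested pathway genes outside the module, the effects of TWEAK and of NIK SMI1 differed between 24 h and 6 h. An interaction contrast in edgeR with Benjamini-Hochberg adjustment was used. Its calls were not read under the alternatives or with single samples left out. The share of all tested genes called by it is not given here, so the differences are not shown to be particular to the pathway. The contrasts within 1 time are other tests, in which 11.7% of all tested genes were called higher with TWEAK at 6 h and 18.3% at 24 h. With NIK SMI1 against TWEAK, 5.70% were called lower at 6 h and 8.29% at 24 h. All values are differences of log2 fold changes, 24 h minus 6 h. The TWEAK effect was larger at 24 h in Traf1 by 1.31 (SE 0.22, adjusted p = 1.22e-04), in Nfkbie, which encodes IκBε, by 0.46 (adjusted p = 0.00257) and in Relb by 0.34 (adjusted p = 0.00101). Smaller differences were found in Nfkbia at 0.21 (adjusted p = 0.0356) and in Tnip1, which encodes the A20 partner ABIN-1, at 0.20 (adjusted p = 0.0155).

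The effect of NIK SMI1 under TWEAK was more negative at 24 h in Nfkbie by -0.55 (adjusted p = 1.85e-04), in Traf1 by -0.52 (adjusted p = 0.0118), in Bcl3 by -0.46 (adjusted p = 0.0287) and in Birc3 by -0.40 (adjusted p = 0.0151). The same direction was found for Relb at -0.37 (adjusted p = 9.42e-04), Nfkbia at -0.35 (adjusted p = 7.18e-04), Tnip1 at -0.30 (adjusted p = 9.60e-04) and Traf2 at -0.21 (adjusted p = 0.0436). At 24 h the TWEAK and NIK SMI1 libraries also differed in islet reads, as given above, and the part of this in these values was not tested.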

How the results depend on the processing

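No paired analysis was possible because the labels give no replicate numbers and the files carry none. The count of 58 members was 58 with TMM and 59 with DESeq2 size factors, both with all 58 shared. With 0.5 or 1 CPM added it was 54 (48 shared) and 52 (43 shared), with medians of 3 samples 52 (45 shared) and without the filter 58. A share limit of 0.5 gave 77 genes and one of 0.6 gave 40. TWEAK replicate 2 alone at 24 h, added after the data had been seen, gave 53. On a linear scale the median share removed was 76.0% at 6 h and 81.5% at 24 h. This was higher than on the log2 scale by more than the spread between NIK SMI1 samples. The construction of the scale implies as much for genes above vehicle. Leaving out single samples moved the median share between 67.8% and 69.9% at 6 h and between 70.1% and 74.0% at 24 h, the lowest without vehicle replicate 3 at 24 h. Members called between the vehicle groups stayed at 5 to 6 higher and 15 to 19 lower. In the pathway list outside the module, single samples moved the genes called lower with TWEAK at 24 h between 1 and 4, those called higher with NIK SMI1 between 1 and 3 at 6 h and between 1 and 2 at 24 h. The κB consensus stood in 17.0% of member promoters both with a stricter pattern and in upstream bases only. No direction turned under any alternative run, but the rule or a call had already set these directions, so few could have turned. Of the main counts, medians and percentages under the alternatives, 276 were the same and 15 moved. For single genes 7243 values were the same, 315 moved and 81 calls were lost. A value moved if it passed the spread between samples or, for a count, changed by over 1.5-fold. Depth limits the 21 members under 5 CPM, whose shares had the largest errors, and 18 members had no promoter in the table used here.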
